A study of Mus musculus with 59 samples.

Results

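The 33 genes described here mark the oligodendrocyte lineage, the cells that make myelin in the brain. They were taken as a list of gene symbols, chosen with earlier results of these data known, and are arranged by stage: 2 genes of precursor cells, 3 transcription factors of the whole lineage, 5 genes of committed and newly formed oligodendrocytes, and 23 genes of myelinating cells (10 myelin proteins, 7 enzymes and carriers, and 6 other genes). All 33 were found among the 51456 Ensembl gene identifiers of the deposited table and all 33 had a mean of at least 10, the minimum that left 16919 genes for testing. The RNA was from prefrontal cortex, taken at postnatal day 25 from C57BL/6J mice of both sexes, after 3 weeks (days 3 to 24) in which the pups received a drug or vehicle through the mother's milk. The groups were mice heterozygous for Ank2 (HT) given fluoxetine, lithium or vehicle (10 libraries each, 5 female and 5 male) and wild-type mice (WT) given fluoxetine (9 libraries, 5 female and 4 male), lithium (10) or vehicle (10, 5 of each sex in both). Fluoxetine blocks the reuptake of serotonin; lithium is used to stabilize mood. The labels name neither the kind of Ank2 allele nor the doses, and they do not say that each library came from its own animal, so p-values measure the spread between these libraries. No litter or dam is recorded for the samples, so differences between litters cannot be told apart from a drug's change.

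Oligodendrocyte precursor cells divide in response to platelet-derived growth factor, which they sense through the receptor encoded by Pdgfra, and carry the NG2 proteoglycan encoded by Cspg4. When they leave the cell cycle they pass through a short premyelinating state, marked by the receptor Gpr17 and the phosphodiesterase Enpp6, and then switch on the transcription factor Myrf, which with Sox10 turns on the genes of the myelin sheath. In the mouse cortex myelination starts after birth and continues into adulthood, so the fourth postnatal week holds cells of every stage. In pieces of bulk tissue, fewer cells of a type and less RNA per cell cannot be told apart.

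To show the sequence from which the genes are transcribed, the promoters of 5 members follow: the precursor genes Pdgfra and Cspg4, which changed with fluoxetine below, and Cnp, Opalin and Mog, which varied together with the other myelin genes. RefSeq sequences (GRCm38.p6, 250 bases before to 50 after the start of transcription) were on hand for 23 of the 33 members; Mbp, Fa2h, Bcas1, Sox10, Olig1, Myrf, Car2, Adamts4, Trf and Gpr17 are named only. Capitals mark matches, on either strand, to CTGGCAC or CTGGTAC (forms of the Myrf motif, GTGCCAG and GTACCAG when read on the other strand), to ACAAAG (a Sox core motif) and to the E-box CAGCTG, which reads the same on both strands. The motifs do not overlap each other in the promoters shown. They lie at chr5:75152001-75152300 (Pdgfra, plus strand), chr9:56864854-56865153 (Cspg4, plus strand), chr11:100574689-100574988 (Cnp, plus strand), chr19:41077064-41077363 (Opalin, minus strand) and chr17:37023349-37023648 (Mog, minus strand).
Pdgfra: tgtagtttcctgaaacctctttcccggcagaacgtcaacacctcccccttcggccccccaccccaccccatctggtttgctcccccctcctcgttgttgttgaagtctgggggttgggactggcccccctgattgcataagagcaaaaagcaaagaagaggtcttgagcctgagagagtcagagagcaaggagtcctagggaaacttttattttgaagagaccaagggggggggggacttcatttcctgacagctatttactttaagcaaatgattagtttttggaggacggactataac
Cspg4: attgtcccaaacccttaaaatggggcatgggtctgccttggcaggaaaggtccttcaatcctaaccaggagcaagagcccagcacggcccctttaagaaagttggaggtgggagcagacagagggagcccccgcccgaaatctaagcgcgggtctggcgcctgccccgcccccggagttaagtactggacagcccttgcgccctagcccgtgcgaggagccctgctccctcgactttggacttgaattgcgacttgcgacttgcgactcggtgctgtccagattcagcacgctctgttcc
Cnp: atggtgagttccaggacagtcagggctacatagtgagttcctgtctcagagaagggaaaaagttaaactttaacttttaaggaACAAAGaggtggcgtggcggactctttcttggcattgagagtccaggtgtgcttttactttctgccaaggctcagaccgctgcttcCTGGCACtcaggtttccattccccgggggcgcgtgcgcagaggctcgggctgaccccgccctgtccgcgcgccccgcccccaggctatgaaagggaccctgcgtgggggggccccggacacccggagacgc
Opalin: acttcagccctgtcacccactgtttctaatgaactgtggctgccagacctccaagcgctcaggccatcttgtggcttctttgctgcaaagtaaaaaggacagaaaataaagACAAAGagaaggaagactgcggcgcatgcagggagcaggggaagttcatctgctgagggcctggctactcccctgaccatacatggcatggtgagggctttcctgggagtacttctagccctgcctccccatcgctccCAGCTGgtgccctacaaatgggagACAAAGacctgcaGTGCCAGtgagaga
Mog: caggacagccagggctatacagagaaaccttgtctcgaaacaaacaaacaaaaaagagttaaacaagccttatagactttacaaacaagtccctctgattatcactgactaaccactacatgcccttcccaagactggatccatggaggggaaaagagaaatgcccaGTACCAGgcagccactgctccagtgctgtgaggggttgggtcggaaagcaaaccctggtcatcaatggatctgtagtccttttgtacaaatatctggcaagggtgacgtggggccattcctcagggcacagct
The 23 member genes had 31 promoters of this length, since some genes have more than 1. CTGGCAC stood in 4 of the 31 (of Cnp, Mag and Opalin) and in 5.01% of all 32851 promoters. CTGGTAC stood in 1 of the 31, that of Mog, and in 2.24% of all promoters. ACAAAG was found in 8 of the 31 (of Cnp, Gjb1, Mag, Mobp, Opalin and Tspan2), against 18.7% of all promoters. CAGCTG was found in 3 of the 31 (of Aspa, Ninj2 and Opalin), against 16.3%. The windows of Pdgfra and Cspg4 held none of the 4. Cnp, Opalin and Mog are, with Mag, the only members with a Myrf motif in these windows. The promoters shown are thus not a sample of the members. These matches are a description of the letters in these windows only.

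Each library's deposited values summed to 30.3 to 33.8 M (M for mega), with an estimated depth of 25.9 to 36.5 M reads. Ank2 itself, which encodes the membrane adaptor ankyrin-B, had medians of 22391, 19673 and 19648 in HT fluoxetine, lithium and vehicle libraries, against 32259, 27491 and 28928 in the WT groups given the same. The highest HT library (22813) lay below the lowest WT library (23284). Genes of cortical excitatory neurons summed to between 140201 and 239908 in every library. For RNA of neighbouring tissue, the lists for striatum, choroid plexus, and dentate gyrus and hippocampus were screened. A level more than 1 log2 unit above the median library set 4 libraries apart. For striatum these were HT fluoxetine female 1 (1.07), HT lithium male 1 (2.02) and HT vehicle male 2 (1.77). HT fluoxetine female 2 stood out for choroid plexus (5.93) and for dentate gyrus and hippocampus (2.45). In that library Ttr, the transthyretin gene of the choroid plexus, stood at 72657, against a median of 13.1 over all libraries. The olfactory bulb list was not part of this screen. Its 10 genes summed from 345.4 in an HT lithium library to 18876 in WT vehicle female 1. The group medians were 2329, 3660 and 5122 in HT fluoxetine, lithium and vehicle libraries. They were 5622, 7647 and 6193 in the WT groups given the same. Sums were also high in WT fluoxetine male 1 (18084), WT lithium male 1 (17160) and HT vehicle female 3 (15074). No fit left these libraries out together. HT fluoxetine female 4 had 9791 of Xist, the RNA of the inactive X chromosome, with 27076 or more in every other female library and 71.3 or less in every male library. Fluoxetine's changes of Pdgfra and Cspg4 in HT mice, over both sexes, are given with and without the 4 libraries set apart and HT fluoxetine female 4. Other results are given without some of these libraries where stated. No fit by sex left out HT fluoxetine female 4.

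**Figure D1:**
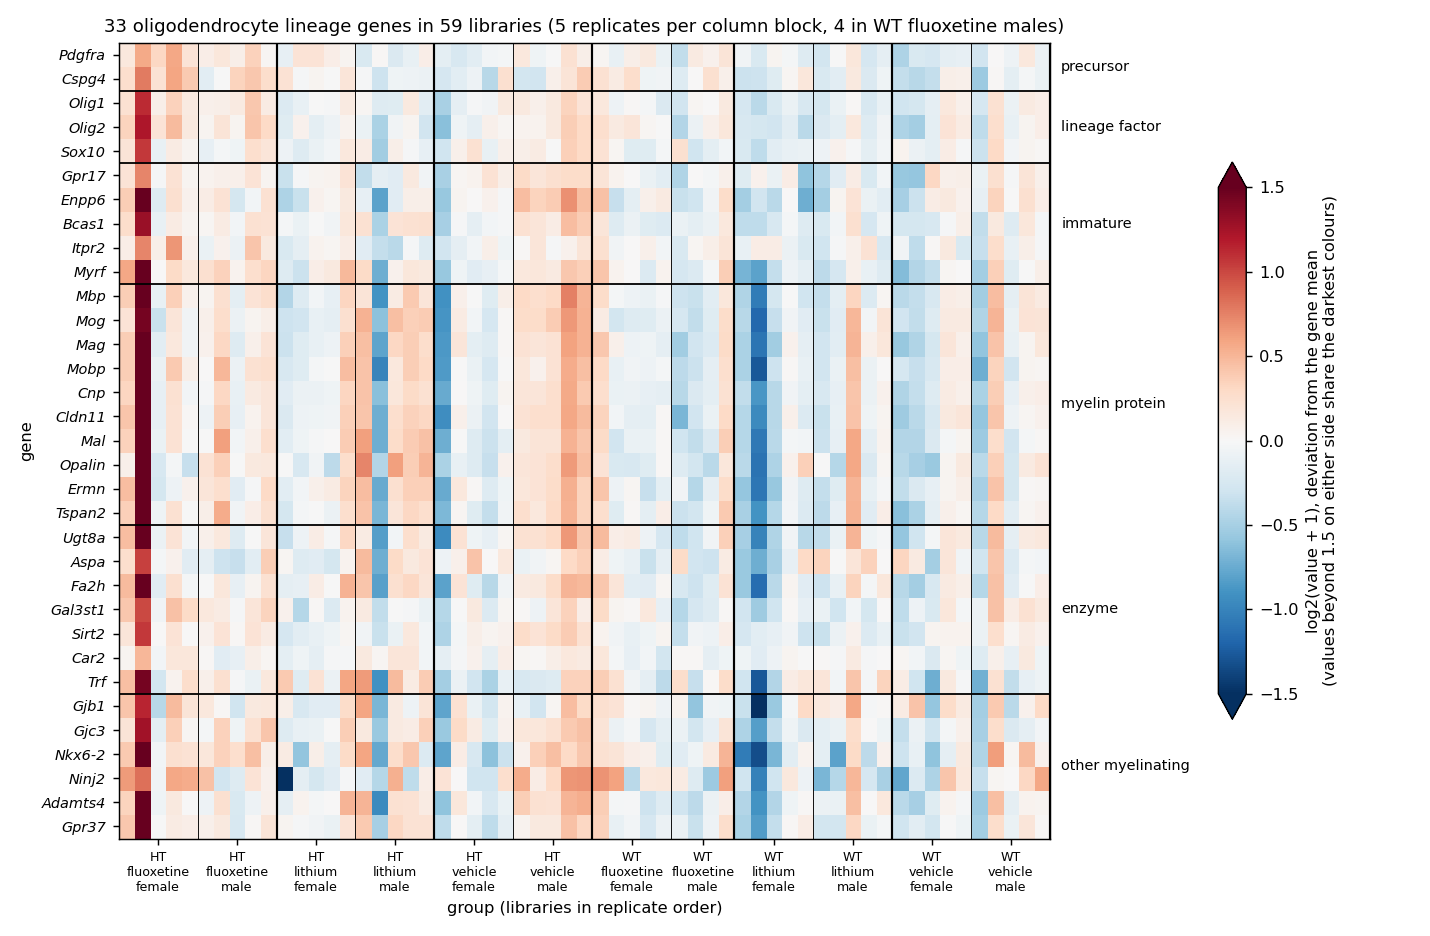
Each row is 1 of the 33 genes and each column 1 of the 59 libraries, arranged by genotype, drug and sex; the colour gives log2(value + 1) as a deviation from the gene's mean over all libraries, and deviations beyond 1.5 on either side share the darkest colours. HT fluoxetine female 2 is the dark red column, in which 32 of the 33 genes have their highest value, and WT lithium female 2 is the blue column in which 19 have their lowest.

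Per kilobase of transcript, myelin proteins held ranks 1 to 4 among the members. The length used was the mean over a gene's annotated transcripts, each counted alike, so the ranks are approximate. Mbp, the protein that holds the cytoplasmic faces of the sheath together, averaged 40864 deposited units per kilobase and ranked first. Mobp, a basic protein of the same compartment, followed with 13404, then Cnp, a phosphodiesterase of the cytoplasmic channels of myelin, with 4783, Mal, a proteolipid of membrane rafts, with 3749, and Sirt2, a deacetylase of tubulin, with 3697. Trf and Car2, of the enzymes and carriers, ranked 6th and 7th, while the myelin proteins Ermn and Opalin ranked 22nd and 28th. The receptor Pdgfra ranked 15th with 780.1, Gpr17 16th with 661.5, Myrf 23rd with 272.2, and Cspg4 30th with 134.7. At the low end stood Nkx6-2, a homeodomain factor, with 75.2 and Ninj2, an adhesion molecule, with 26.2. Ninj2 was the member closest to the minimum, with a mean of 22.0 before division by length.

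The myelin genes varied widely between libraries of the same group. The standard deviation (SD) of log2(value + 1) within the 12 groups of genotype, drug and sex had a median of 0.33 over the 33 members, against 0.16 over all genes tested and 0.12 where the mean was 250 or more. By stage the median SD was 0.18 for the precursor genes, 0.21 for the lineage factors, 0.24 for the immature genes, 0.37 for the myelin proteins, 0.31 for the enzymes and carriers and 0.37 for the other myelinating genes. Among the myelin proteins the highest library exceeded the lowest between 5.33-fold (Cnp) and 8.56-fold (Mobp), while for Pdgfra this ratio was 2.05 and for Cspg4 2.51. Car2, a carbonic anhydrase of oligodendrocytes and other cells, had the smallest SD of all members, 0.11. The precision of every comparison below therefore differs by stage, with standard errors (SE) of about 0.07 log2 units for Pdgfra and 0.16 for Mbp.

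The extremes came from few libraries. The mean log2 deviation of the myelin proteins was 1.63 in HT fluoxetine female 2, 1.13 for the lineage factors, 1.21 for the immature genes and 0.67 for the precursor genes in the same library. Its Mbp value was 196582, Mobp 61099 and Mog, a protein of the outer face of the sheath, 4451. The precursor genes were thus the least raised of the stages in the library that also carried the choroid plexus and dentate gyrus RNA. WT lithium female 2 held the lowest value of 19 members, HT lithium male 2 and HT vehicle female 1 of 4 each.

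By group, the stage levels (the mean log2 deviation of a stage's genes from their means over all libraries) overlapped between all 6 groups. The precursor genes had medians of 0.24 in HT fluoxetine, 0.03 in HT lithium and -0.09 in HT vehicle libraries, and of 0.07 in WT fluoxetine, -0.09 in WT lithium and -0.10 in WT vehicle libraries. HT fluoxetine libraries ranged from -0.03 to 0.67 and thus overlapped every other group, the nearest in order being WT fluoxetine with -0.28 to 0.17. The lineage factors had medians of 0.15, -0.06 and 0.08 in the HT groups in the same order, and of -0.02, -0.19 and -0.01 in the WT groups. The immature genes had 0.18, 0.004 and 0.10 in the HT groups, and -0.04, -0.17 and -0.01 in the WT groups. For the myelin proteins the HT medians were 0.15, 0.12 and 0.13 and the WT medians -0.13, -0.14 and -0.05, while single libraries ran from -1.06 (WT lithium female 2) to 1.63. The HT fluoxetine median was the highest in every stage, and neighbouring groups in each order overlapped. For the myelin proteins this order changed with the libraries left out. Without female 2 the HT fluoxetine median was 0.11, below those of the HT lithium and HT vehicle libraries. Without the 4 libraries set apart above it was 0.082, above HT vehicle (0.054) and HT lithium (-0.045). The enzymes and carriers then had 0.046 in HT fluoxetine and 0.049 in HT vehicle libraries. Without female 2 alone they had 0.059 in HT fluoxetine, 0.055 in HT lithium and 0.043 in HT vehicle libraries.

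The members followed Mbp closely across libraries, the myelin proteins more than the precursor genes. After each library's deviation from its group mean was taken, 40 relations with Mbp were computed over 59 libraries: the 32 other members and 8 genes of other cells or regions. Mobp gave r = 0.98 (rho = 0.96), with p = 1e-05, the smallest the 100000 permutations can give, and 1.29e-05 after adjustment over the 40 relations. The median r was 0.97 for the 9 other myelin proteins, 0.84 for the other myelinating genes, 0.82 for the enzymes and carriers, 0.84 for the immature genes and 0.83 for the lineage factors. It was 0.51 for the precursor genes. Pdgfra had r = 0.41 (rho = 0.44, permutation p = 0.0012, adjusted 0.00141) and Cspg4 r = 0.60 (rho = 0.62, p = 1e-05, adjusted 1.29e-05). Without HT fluoxetine female 2 and HT lithium male 2, the 2 libraries farthest from the median of Mbp, the medians were 0.95 for the myelin proteins and 0.51 for the precursor genes, and r was 0.45 for Pdgfra and 0.57 for Cspg4.

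Within the immature stage the likeness ran from 0.94 for Myrf to 0.55 for Itpr2, a calcium channel of the endoplasmic reticulum. Of the 8 comparison genes, r was highest for Prox1, a factor of the dentate gyrus that oligodendrocytes also express (0.67, and 0.57 without the 2 libraries). Over 59 libraries r was lowest for Cldn5 of endothelial cells (-0.43, and -0.25 without the 2). S100a5 of the olfactory bulb had -0.29 (adjusted permutation p = 0.0277). Without the 2 libraries S100a5 was the lowest of the 8, at -0.37 (adjusted p = 0.00561). Aqp4 of astrocytes had 0.13 (0.09 without the 2 libraries) and Slc17a7 of excitatory neurons -0.15, which turned to 0.07 without them. Ppp1r1b of the striatum had r = 0.20 (adjusted permutation p = 0.136) and rho = 0.33 (adjusted p = 0.0133), and r = 0.30 without the 2 libraries (adjusted p = 0.027). Ranked by r among the 16918 other genes tested, the members most like Mbp were Mobp, Cnp, Mog and Mag, an adhesion protein of the inner face of the sheath. Members made up 15 of the top 30, 19 of the top 50 and 24 of the top 100, while Cspg4 ranked 283rd and Pdgfra 976th. These libraries share a dissection and a scaling by the authors, so the ranks are a description.

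**Figure D2:**
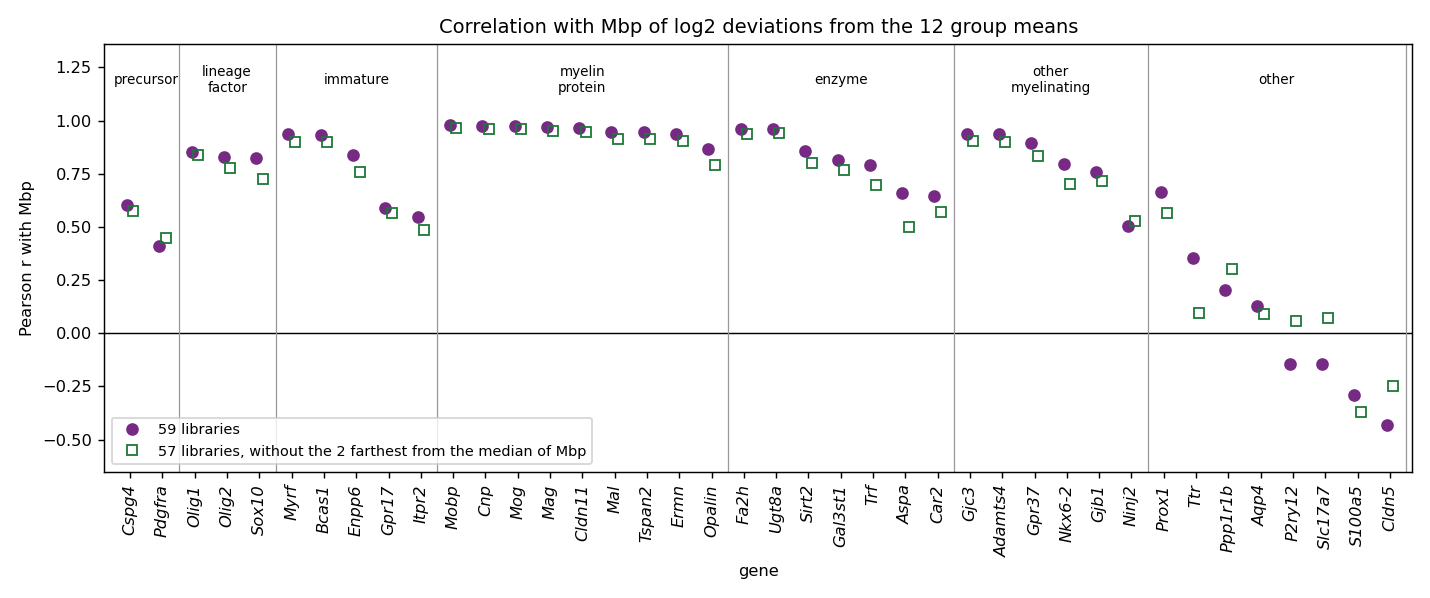
Pearson r (vertical axis) with Mbp of each gene's log2 deviations from the 12 group means, for 32 members by stage and 8 genes of other tissue or cells (columns under "other"); filled circles use 59 libraries and open squares leave out the 2 farthest from the median of Mbp. The myelin proteins lie at 0.86 to 0.98, the precursor genes Cspg4 and Pdgfra at 0.60 and 0.41, and the other genes between -0.43 and 0.67.

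The first comparison asks what fluoxetine did in HT mice. Pdgfra, Cspg4, Olig2 and Gal3st1 rose, all by less than 1.3-fold, and no member fell; 14.0% of all genes tested passed the same threshold, 6.63% as higher, and 4 of 33 lies between these shares. A gene was called when its Benjamini-Hochberg adjusted p, over all 16919 genes in the limma fit, was under 0.05. Of the 33 log2 changes 32 were positive, with a median of 0.18, against -0.002 over all genes. Both precursor genes were called, as were 1 of 3 lineage factors, 0 of 5 immature genes, 0 of 10 myelin proteins, 1 of 7 enzymes and carriers and 0 of 6 other myelinating genes.

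Pdgfra had 2169, 2413 and 3158 as its lowest, median and highest value in HT fluoxetine libraries, against 1792, 2073 and 2493 in HT vehicle libraries. All 10 fluoxetine libraries lay above the vehicle median and 4 above the highest vehicle library, so the groups overlapped. The log2 change was 0.28 (SE 0.07, adjusted p = 0.00262), a 1.21-fold rise. Cspg4 had 638.2, 876.8 and 1222 in HT fluoxetine libraries, against 535.4, 657.8 and 927.5 in HT vehicle libraries. The value of 1222 came from HT fluoxetine female 2. Again the groups overlapped, with 9 of 10 fluoxetine libraries above the vehicle median and 4 above the highest. Its log2 change was 0.36 (SE 0.09, adjusted p = 0.00422), or 1.29-fold. Both genes have other sources in the brain: Cspg4 is also made by pericytes, and Pdgfra by fibroblasts of the meninges and vessels. The 12 endothelial and pericyte markers summed to 13275, 16113 and 19632 in HT fluoxetine libraries, against 14736, 16681 and 17499 in HT vehicle libraries (median log2 change -0.04; 1 called higher and 2 lower). The 8 fibroblast and meningeal markers summed to 5549, 6524 and 8989 in HT fluoxetine libraries, against 4664, 7474 and 7693 in HT vehicle libraries (median -0.06; 0 called).

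Olig2, a helix-loop-helix factor that specifies the lineage and remains on throughout it, had 623.3, 722.1 and 1403 in HT fluoxetine libraries, against 390.3, 628.5 and 782.8 in HT vehicle libraries. The highest of these was female 2, and 8 of 10 libraries exceeded the vehicle median. Its change was 0.32 (SE 0.10, adjusted p = 0.0255). Gal3st1, the sulfotransferase that makes the myelin lipid sulfatide, had 290.1, 353.3 and 598.0 in HT fluoxetine libraries, against 224.1, 305.6 and 383.7 in HT vehicle libraries, with a change of 0.27 (SE 0.09, adjusted p = 0.0339). Here too the maximum was female 2 and the groups overlapped. Just outside the threshold stood Olig1, the partner of Olig2, with 0.24 (adjusted p = 0.051), Myrf with 0.38 (0.0717), Itpr2 with 0.21 (0.0811) and Nkx6-2 with 0.41 (0.111).

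Mature myelin transcripts did not pass the test with fluoxetine in HT mice. Mbp had 54581, 70248 and 196582 in HT fluoxetine libraries, against 32119, 67702 and 101376 in HT vehicle libraries, a change of 0.18 (SE 0.16, adjusted p = 0.493). Mog had 1311, 1745 and 4451 in HT fluoxetine libraries, against 892.1, 1892 and 2583 in HT vehicle libraries, a change of 0.08 (SE 0.16, adjusted p = 0.804). For both genes the ranges overlapped, with HT fluoxetine female 2 above every HT vehicle library and the lowest HT vehicle library below every HT fluoxetine library. Myrf, one step earlier, had 965.1, 1165 and 3320 in HT fluoxetine libraries, against 649.2, 999.2 and 1280 in HT vehicle libraries. Gpr17 had 3343, 3568 and 5650 in HT fluoxetine libraries, against 2411, 3892 and 4147 in HT vehicle libraries (change 0.05, adjusted p = 0.809). Aspa, which breaks down N-acetylaspartate, was the 1 member with a negative estimate, -0.06.

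**Figure D3:**
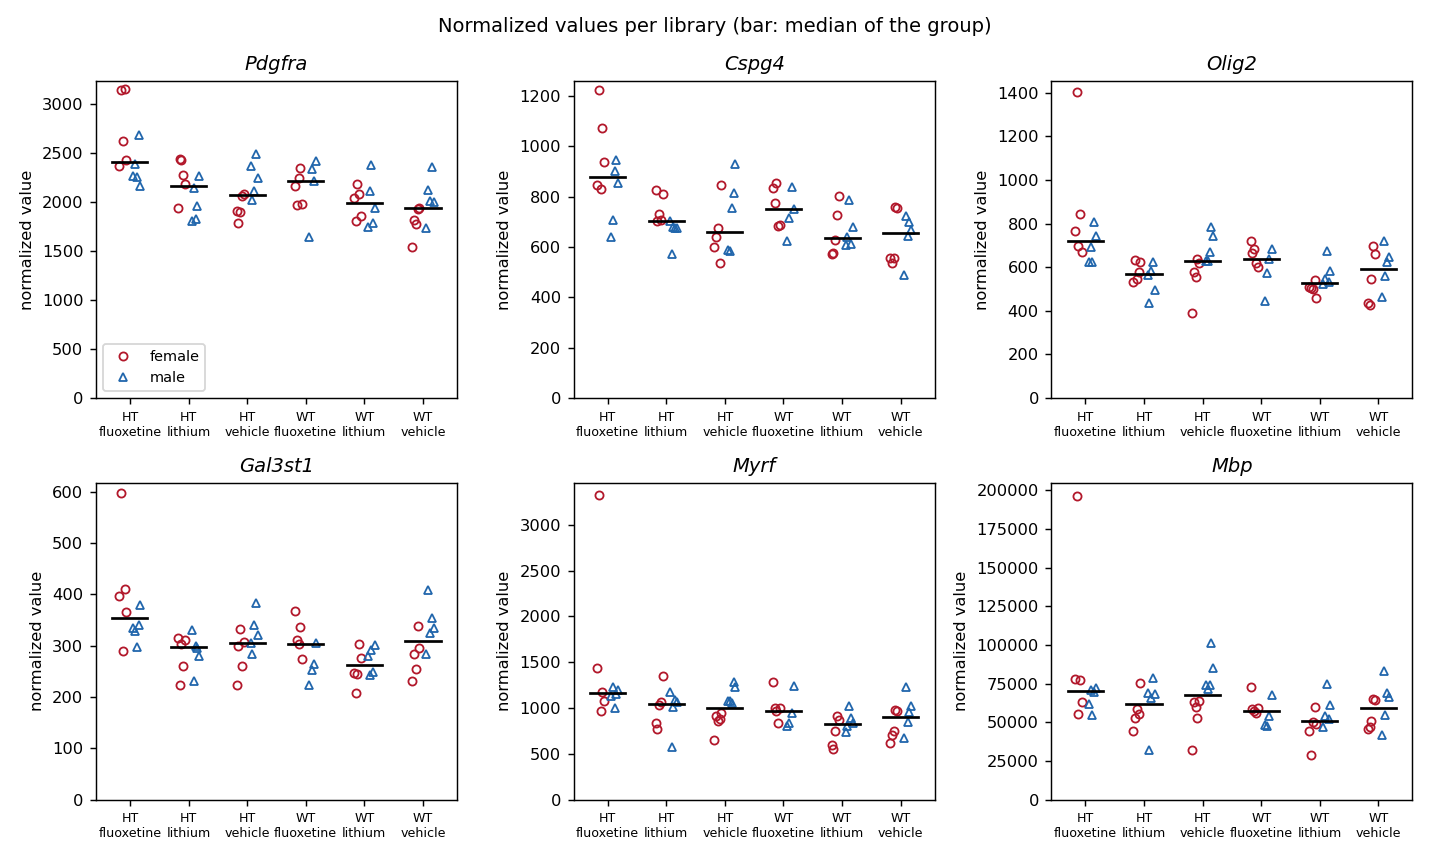
Deposited normalized values (vertical axis, linear from 0) of 6 members in every library of the 6 groups of genotype and drug; circles are female and triangles male libraries, and bars are group medians. HT fluoxetine libraries of Pdgfra start at 2169, above the HT vehicle median of 2073, and 4 of the 10 exceed every HT vehicle library. The ranges of these groups overlap for Pdgfra and for Mbp, and the single Mbp point at 196582 is female 2.

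Leaving out HT fluoxetine female 2 divided the 4 calls. Without it Pdgfra (log2 change 0.25, adjusted p = 0.00709) and Cspg4 (0.32, 0.0118) were still called, Olig2 (0.23, 0.0806) and Gal3st1 (0.20, 0.0999) were not, and the median of the 33 changes was 0.04. Without the 4 libraries set apart by striatal, choroid plexus or dentate gyrus markers, Pdgfra stood at 0.26 (adjusted p = 0.0132), Cspg4 at 0.30 (0.035) and the median at -0.01. Mbp then had a change of -0.03 and Myrf 0.16. Without HT fluoxetine female 4, the library with low Xist, Pdgfra had 0.25 (adjusted p = 0.00786) and Cspg4 0.34 (0.00937). Without HT vehicle female 1 the called members were also 2, with Pdgfra at 0.27 (adjusted p = 0.00363) and Cspg4 at 0.35 (0.00737).

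In WT mice no member was called with fluoxetine, where 14.8% of all genes were; 2 members had an unadjusted p under 0.05. The largest estimate was that of Cspg4, with 624.1, 751.4 and 853.1 in WT fluoxetine libraries, against 486.9, 654.0 and 758.2 in WT vehicle libraries (0.24, SE 0.09, adjusted p = 0.0738). Of these, 8 of 9 fluoxetine libraries exceeded the vehicle median and 4 the highest vehicle library. Pdgfra had 1641, 2212 and 2426 in WT fluoxetine libraries, against 1542, 1937 and 2360 in WT vehicle libraries (0.16, SE 0.07, adjusted p = 0.114). Of the 33 changes 21 were positive, with a median of 0.03, and the 10 myelin proteins had a median of 0.02. The lowest estimates were Mog with -0.11 (adjusted p = 0.735) and Gal3st1 with -0.10 (0.558). Myrf had 0.18 (adjusted p = 0.47), Gpr17 -0.02 (0.92) and Mbp -0.006 (0.988). Without WT vehicle female 1, 16 of 33 changes were positive, with a median of -0.0009. Without WT fluoxetine male 1, Pdgfra (0.22, adjusted p = 0.0162) and Cspg4 (0.28, 0.0449) were called higher. Cspg4 was also called with replicate number added to the fit (adjusted p = 0.0315) and without WT vehicle female 4 (0.042) or female 5 (0.0419).

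Fluoxetine's changes in HT and WT mice were not shown to differ. In the test of the difference (HT minus WT), 0 members and 0 of the 16919 genes were called by limma; 1 member had an unadjusted p under 0.05, as did 665 genes in the higher and 626 in the lower direction. The difference was positive for 32 of 33 members, with a median of 0.15, and without HT fluoxetine female 2 for 23, with a median of 0.04. Gal3st1 had the smallest p, with a difference of 0.37 (SE 0.13, unadjusted p = 0.00616, adjusted 0.557). When the 2 genotypes were averaged, a contrast added after the data were seen, 4 members rose: Cspg4 by 0.30 (adjusted p = 0.000326), Pdgfra by 0.22 (0.000364), Olig2 by 0.22 (0.0207) and Myrf by 0.28 (0.0384), where 26.5% of all genes were called. Myrf was not called without HT fluoxetine female 2 (0.20, adjusted p = 0.0638), with no filter on low values (0.0669) or with length and GC trends removed (0.103), and its adjusted p over the 9 alternatives ran from 0.0193 to 0.142. Without the 4 libraries neither Myrf (0.17, 0.142) nor Olig2 (0.16, 0.0749) was called. The HT and WT fluoxetine contrasts use different libraries, and each alone gave a positive estimate for both precursor genes.

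**Figure D4:**
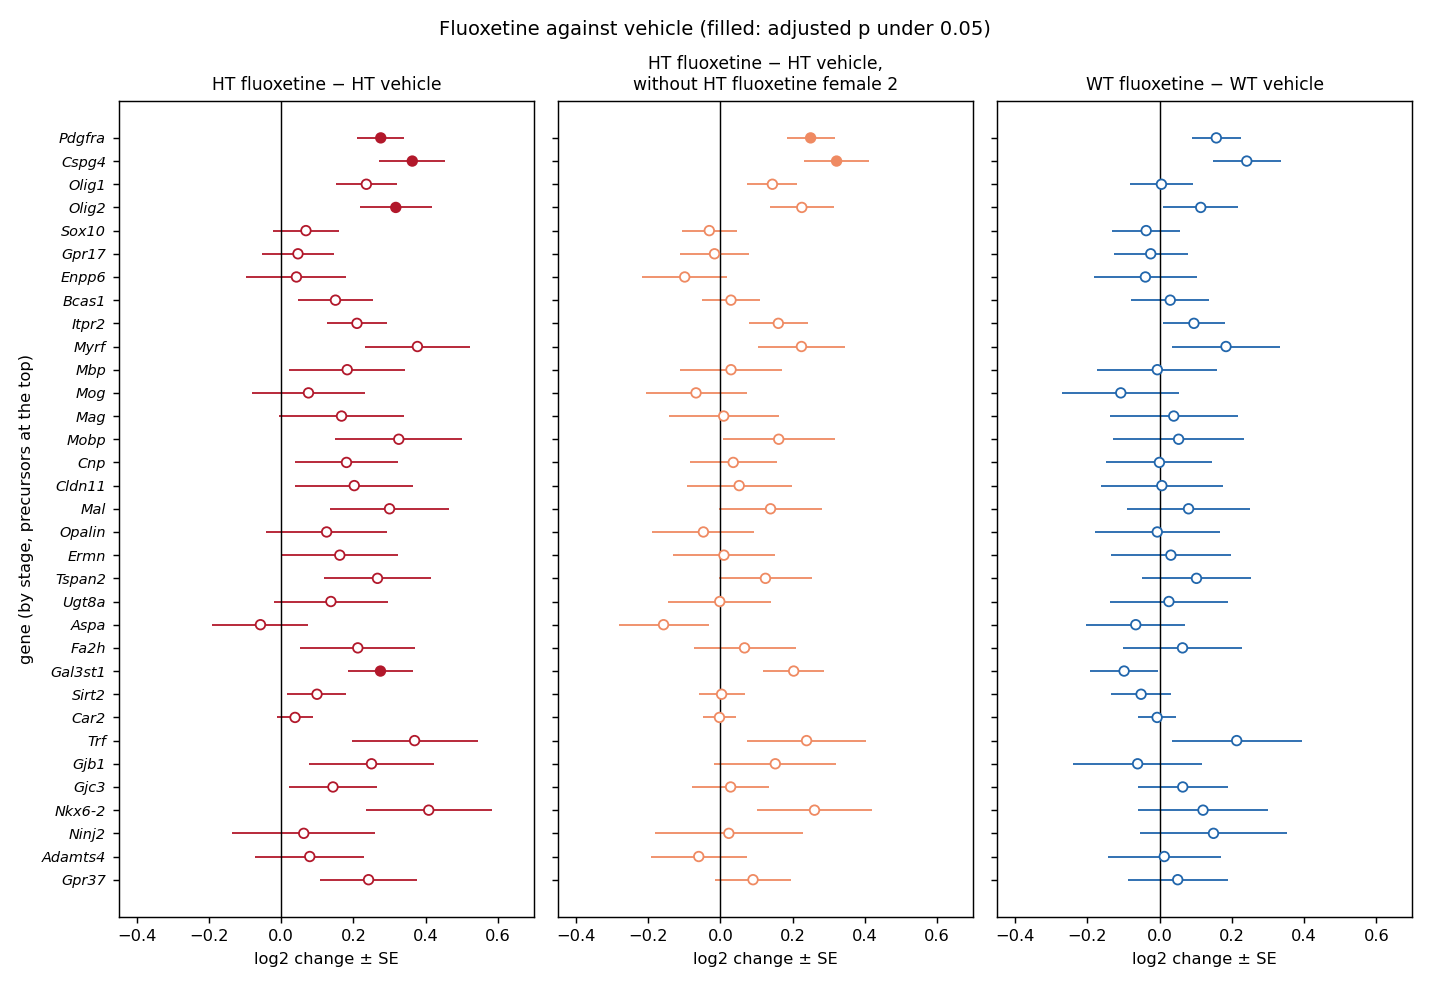
Log2 change with fluoxetine relative to vehicle (horizontal axis) of the 33 members, ordered by stage, with the standard error as bars; from left to right the panels show HT mice, HT mice without female 2 of the fluoxetine group, and WT mice, and filled points were called at an adjusted p under 0.05. Filled points are Pdgfra, Cspg4, Olig2 and Gal3st1 in the first panel, Pdgfra and Cspg4 in the second, and none in the third.

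The sexes gave different estimates of fluoxetine's change in HT mice, and 1 female library carried much of it. In HT females 15 of 33 members were called, all higher, where 8.75% of all genes were called, and all 33 changes were positive, with a median of 0.54. In HT males 0 members were called, where 3.36% of genes were, 5 changes were positive, and the median was -0.16. The difference between the sexes (female minus male) had a median of 0.71 and an unadjusted p under 0.05 for 29 members, but 0 of all genes were called, so it was not shown beyond the spread between libraries. Without HT fluoxetine female 2, 3 members were called in females (Pdgfra, Cspg4 and Olig2), where 4.74% of genes were, the median was 0.33, and 16 members had an unadjusted p under 0.05 for the difference, again with 0 genes called. Without HT vehicle female 1, 8 members were called in females, where 9.32% of genes were, and the median was 0.43. Without the 4 libraries set apart above, 2 members were called in females, where 2.74% of genes were, and the median was 0.27. For the difference between the sexes 10 members then had an unadjusted p under 0.05, with 0 genes called.

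Pdgfra had the smallest p of the members in HT females. HT fluoxetine females had 2374, 3150, 2630, 3158 and 2434, against 1909, 1792, 1905, 2067 and 2079 in HT vehicle females. The groups of 5 did not overlap, with a change of 0.49 (SE 0.09, adjusted p = 0.000858). The share of all genes whose HT female groups did not overlap was not counted. The values of 3150 and 3158 came from female 2 and from female 4, the library with low Xist. HT fluoxetine males had 2265, 2392, 2259, 2689 and 2169, against 2366, 2027, 2116, 2493 and 2251 in HT vehicle males, which overlapped (0.07, SE 0.09, adjusted p = 0.809). The difference between the sexes for Pdgfra was 0.42 (SE 0.13, unadjusted p = 0.00229, adjusted 0.519).

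Cspg4 was called in HT females with 0.58 (SE 0.13, adjusted p = 0.00382) and had 0.15 (SE 0.13, adjusted p = 0.634) in HT males. Myrf had 1438, 3320, 965.1, 1179 and 1072 in HT fluoxetine females, against 649.2, 917.9, 853.6, 881.8 and 943.3 in HT vehicle females. These groups did not overlap either, and again the share of all genes without overlap was not counted. The change of 0.76 (SE 0.20, adjusted p = 0.0156) includes the value of 3320 from female 2. In HT males Myrf had a change of -0.002. Mbp had 77915, 196582, 55606, 77346 and 63212 in HT fluoxetine females, against 32119, 63463, 60141, 53108 and 63943 in HT vehicle females, which overlapped (0.66, SE 0.23, adjusted p = 0.0562). In HT males its values were 61873, 70940, 54581, 69556 and 72086 with fluoxetine, against 73991, 71461, 73862, 101376 and 85461 with vehicle. Only 1 of the 5 vehicle males lay below the highest fluoxetine male, and the change was -0.30 (SE 0.23, adjusted p = 0.574). As medians, Mbp stood at 60141 in HT vehicle females and 73991 in HT vehicle males.

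Markers of other cell types were summed in the same libraries. The 12 astrocyte markers summed to 178756, 198137 and 242851 in HT fluoxetine libraries, against 150409, 175462 and 187330 in HT vehicle libraries, and 3 of the 12 were called higher (median log2 change 0.08). The 12 excitatory neuron markers summed to 188305, 214970 and 239908 in HT fluoxetine libraries, against 157173, 192243 and 202702 in HT vehicle libraries, with 2 of the 12 called higher and a median log2 change of 0.10. Their mean log2 deviation was -0.46 in HT fluoxetine female 2. The striatal markers (14, of which Isl1 was at 0 in 22 of 59 libraries) summed to 5765, 8724 and 14410 in HT fluoxetine libraries, against 7342, 8163 and 20510 in HT vehicle libraries, with a median log2 change of -0.37. The 11 choroid plexus markers summed to 7256, 8188 and 119853 in HT fluoxetine libraries, against 7012, 7364 and 8303 in HT vehicle libraries. Of these, Calml4 was at 0 in 15 libraries and Enpp2 is made by oligodendrocytes too. With the striatal level as a covariate Pdgfra and Cspg4 were still called. The part of the other lists in the members' changes was not tested, beyond the fits without the libraries set apart above.

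Of the 67 other genes of the lineage in the 3 pathway lists (16 of precursors, 11 of immature and 40 of myelinating cells), 1 was called with fluoxetine in HT mice: Pex5l, a subunit partner of HCN channels, with 0.17 (adjusted p = 0.0477), where 14.0% of all genes were called. Of the 16 further precursor genes, among them the phosphatase Ptprz1 and the proteoglycan Vcan, 0 were called and 7 changes were positive, with a median of -0.04, unlike the 2 precursor members. Among the 40 further myelinating genes 36 changes were positive, with a median of 0.16 and 1 called. In WT mice given fluoxetine 1 of the 67 was called, Arap2 of the immature list, with 0.16 (adjusted p = 0.0379), where 14.8% of all genes were called.

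The second comparison is that of HT with WT mice given the same. No member was called in any of the 3 drug groups, where 0.00591% of genes were called with vehicle, 0.0118% with fluoxetine and 0.550% with lithium. The estimates were mostly positive. The members varied together across libraries, so the counts that follow are not of independent genes. No share of all genes with a positive sign or an unadjusted p under 0.05 stands beside them. With vehicle 30 of 33 were positive (median 0.13) and 1 had an unadjusted p under 0.05, Gjc3, a gap junction gene of oligodendrocytes, at 0.25. With fluoxetine 33 of 33 were positive (median 0.29) and 20 had an unadjusted p under 0.05, and with lithium 31 of 33 (median 0.20) and 3. Without HT fluoxetine female 2 the fluoxetine median was 0.15 and 6 members had an unadjusted p under 0.05, and without the 4 libraries 0.13 and 6; with lithium the number under 0.05 was then 10 and 5. Without HT vehicle female 1 the vehicle median was 0.21, with 33 of 33 positive. The 3 comparisons use separate libraries, but the one with fluoxetine shares its HT libraries with the comparison of fluoxetine and vehicle in HT mice.

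The smallest adjusted p among members, 0.0842, was that of Gal3st1 with fluoxetine. It had 290.1, 353.3 and 598.0 in HT fluoxetine libraries, against 222.7, 304.0 and 367.1 in WT fluoxetine libraries, a difference of 0.35 (SE 0.09). Pdgfra had 2169, 2413 and 3158 in HT fluoxetine libraries, against 1641, 2212 and 2426 in WT fluoxetine libraries (0.25, adjusted p = 0.0928; called without HT fluoxetine female 1, with 0.27 and 0.039). With lithium, Nkx6-2 had 66.6, 122.7 and 172.6 in HT libraries, against 44.6, 94.3 and 139.2 in WT libraries (0.42, adjusted p = 0.217). Ermn, a cytoskeletal protein of myelin, had 587.0, 1128 and 1378 in HT lithium libraries, against 470.4, 873.6 and 1422 in WT lithium libraries (0.36, adjusted p = 0.25). Negative estimates with lithium were those of Itpr2 (-0.08, adjusted p = 0.642) and Ninj2 (-0.008, 0.99). With vehicle the lowest estimates were Gjb1 (-0.07) and Gal3st1 (-0.02), and Pdgfra had 0.13. Myrf had 0.38 with fluoxetine (adjusted p = 0.199), 0.31 with lithium (0.271) and 0.19 with vehicle. Groups overlapped for all 33 members in each of the 3 comparisons.

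Mbp had medians of 70248, 62168 and 67702 in HT mice given fluoxetine, lithium and vehicle, against 57327, 51041 and 59471 in WT mice given the same. Mog followed with medians of 1745, 1736 and 1892 in HT mice, against 1452, 1460 and 1676 in WT mice. Gpr17 had 3568, 3311 and 3892 in HT mice, against 3390, 3089 and 3578 in WT mice. In each of the 3 pairs the HT median was the higher, by less than the range within a group. As log2 differences with fluoxetine, lithium and vehicle, Mbp had 0.37, 0.20 and 0.18, Mog 0.31, 0.25 and 0.13, and Gpr17 0.21, 0.08 and 0.14.

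Averaged over the 3 drugs, a contrast added after the data were seen, all 33 estimates were higher in HT than in WT mice, with a median of 0.21, and 28 had an unadjusted p under 0.05 (0.17 and 25 without HT fluoxetine female 2). The members varied together across libraries, so these counts are not of independent genes. The median r with Mbp was 0.97 for the other myelin proteins and 0.51 for the precursor genes. No share of all genes under 0.05, or with a positive sign, is given over both sexes. In females alone 16 members had an unadjusted p under 0.05, as did 2481 of the 16919 genes tested. In males alone 6 members and 2380 genes did. Over both sexes no member was called after adjustment over all genes, where 0.248% of genes were. Pdgfra stood nearest, with 0.16 (SE 0.04, adjusted p = 0.054), followed by Gjc3 with 0.26 (0.075), Myrf with 0.30 and Olig1 with 0.17 (both 0.0863). Without HT fluoxetine female 2, Pdgfra had 0.15 (adjusted p = 0.0498) and was called, and without the 4 libraries with markers of other regions 0.17 (0.0307). The 13 striatal markers tested had a median of 0.13 in the same contrast, 11 of them positive, and 0 were called. With the striatal level as a covariate Pdgfra was called. The olfactory bulb markers had lower median sums in HT than in WT libraries in each drug group. These were 2329 against 5622 with fluoxetine, 3660 against 7647 with lithium and 5122 against 6193 with vehicle. Their part in the members' differences was not tested. By sex, Pdgfra was called in females (0.21, adjusted p = 0.0302) and not in males, where 1.29% and 0.0118% of genes were, and 0 members were called for the difference between the sexes (0.260% of genes).

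**Figure D5:**
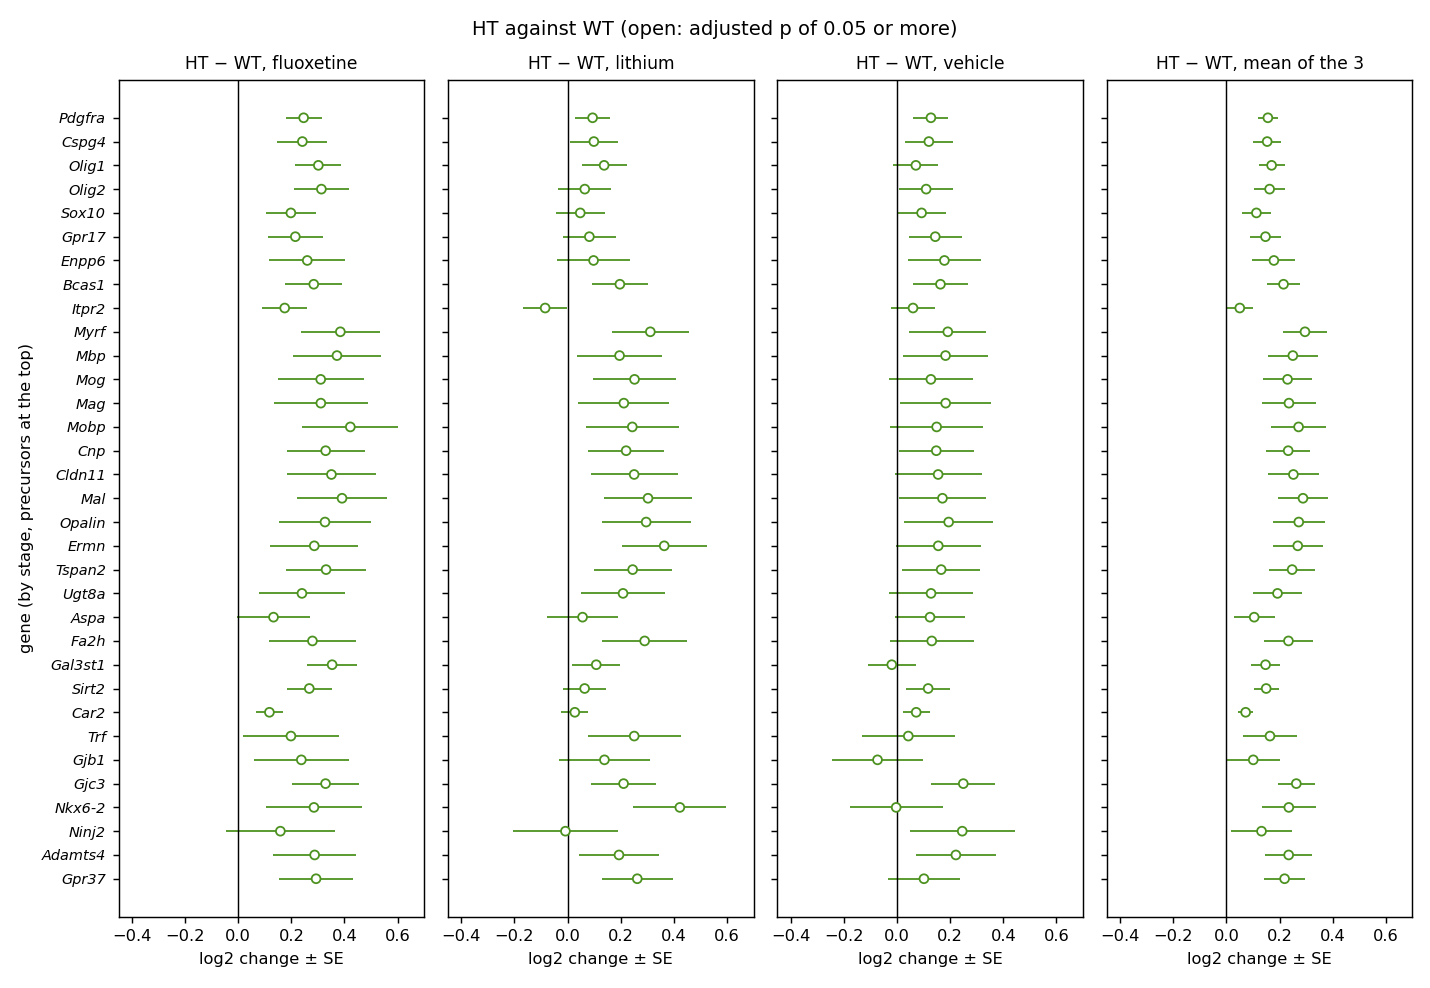
Log2 difference between HT and WT libraries (horizontal axis) of the 33 members, ordered by stage, with the standard error as bars, for mice given fluoxetine, lithium or vehicle and for the mean of the 3. All points are open because no member was called; all 33 lie above 0 in the fluoxetine panel and in the mean, with medians of 0.29 and 0.21 (0.15 and 0.17 without HT fluoxetine female 2, not drawn).

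The difference between HT and WT vehicle mice was not shown to depend on sex. Between HT and WT vehicle males 32 of 33 were positive, with a median of 0.32, and between HT and WT vehicle females 17 of 33, with a median of 0.004. Without HT vehicle female 1, 30 of 33 were positive in females and the median was 0.10. For the difference (female minus male) 0 genes were called, and 0 members had an unadjusted p under 0.05.

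The third comparison, of lithium with the same vehicle libraries that fluoxetine was set against, called no member in either genotype, where 2.22% of genes were called in WT mice and 5.01% in HT mice. In HT mice 12 of 33 changes were positive, with a median of -0.02; without HT vehicle female 1 it was 6, with a median of -0.09. The lowest was Ninj2, with 4.30, 18.4 and 30.7 in HT lithium libraries, against 16.7, 24.5 and 33.8 in HT vehicle libraries (-0.52, SE 0.20, adjusted p = 0.118). Sirt2 had 3667, 4362 and 5140 in HT lithium libraries, against 3329, 5089 and 6008 in HT vehicle libraries (-0.20, SE 0.08, adjusted p = 0.146). It was called lower without HT vehicle female 1 (adjusted p = 0.0362), without HT fluoxetine female 2 (0.0374) and without the 4 libraries (0.049). The highest estimate was Trf, the iron carrier transferrin, with 1676, 3885 and 4905 in HT lithium libraries, against 2204, 2728 and 4004 in HT vehicle libraries (0.31, SE 0.17, adjusted p = 0.321). Mal, a raft proteolipid, had 3510, 6485 and 8964 in HT lithium libraries, against 3522, 6160 and 8373 in HT vehicle libraries (0.10, SE 0.16, adjusted p = 0.765). All 4 pairs of groups overlapped. The other estimates were -0.18 for Gpr17 (adjusted p = 0.3), -0.16 for Mbp (0.604), -0.06 for Mog (0.879), -0.01 for Myrf (0.98) and 0.02 for Pdgfra (0.905).

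In WT mice given lithium 5 of 33 changes were positive, with a median of -0.10. Nkx6-2 had the lowest estimate, with 44.6, 94.3 and 139.2 in WT lithium libraries, against 75.03, 111.2 and 176.1 in WT vehicle libraries (-0.39, adjusted p = 0.291). Gal3st1 had 207.3, 263.0 and 304.1 in WT lithium libraries, against 230.6, 309.7 and 407.7 in WT vehicle libraries (-0.22, adjusted p = 0.232). No WT lithium library exceeded the vehicle median of Gal3st1, although the ranges overlapped. The precursor genes Pdgfra and Cspg4 had estimates of 0.05 and 0.06. Those of Mog and Mbp were both -0.18 (adjusted p = 0.686 and 0.711), that of Myrf -0.13 (0.782) and that of Gpr17 -0.12 (0.676).

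Averaged over both genotypes, again a contrast added after the data were seen, Sirt2 fell by 0.17 on the log2 scale (SE 0.06, adjusted p = 0.045) and Enpp6 fell by 0.29 (SE 0.10, adjusted p = 0.0461), where 10.2% of all genes were called. Enpp6 had medians of 491.4 in HT lithium libraries and 586.8 in HT vehicle libraries, and of 436.2 in WT lithium libraries and 538.2 in WT vehicle libraries. Both calls lay close to the threshold: neither was made with no filter on low values or with length and GC trends removed. Of the 59 fits that left 1 library out, 24 lost the call of Enpp6 and 25 that of Sirt2. Lithium's change was not shown to differ between genotypes: in the test of the difference 0 members and 0 genes were called by limma (at an unadjusted p under 0.05, 0 members, and 485 genes in the higher and 654 in the lower direction). By sex, 26 of 33 changes were positive in HT females given lithium (median 0.13) and 3 in HT males (median -0.24), with 0 members called in either (4.45% of genes in HT females and 0.0177% in HT males). Without HT vehicle female 1 the female count was 17 of 33 and the median 0.007. Among the 67 other lineage genes, lithium in HT mice called Pex5l (0.21, adjusted p = 0.0357) and Cntn2, an adhesion protein near the node of Ranvier (0.25, 0.0407), as higher and Frmd4a (-0.19, 0.0436) as lower.

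Between females and males over all groups 0 members were called, where 2.10% of genes were, and 3 of 33 estimates were higher in females, with a median of -0.09. The lowest were Opalin, a myelin glycoprotein (-0.24, SE 0.10, adjusted p = 0.164), and Mog (-0.23, SE 0.09, adjusted p = 0.154), and the highest was Cspg4 (0.06). Omg, an oligodendrocyte glycoprotein of the pathway lists, was lower in females by the test (-0.13, adjusted p = 0.0338). Opalin had medians of 384.2 in HT lithium females and 565.2 in HT lithium males, and of 297.5 in WT vehicle females and 435.6 in WT vehicle males. Without HT fluoxetine female 2, 2 members were called lower in females, Mog and Opalin.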

How the data were processed

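RNA-seq was made from 59 prefrontal cortex libraries with a stranded TruSeq mRNA kit, per the labels' protocols. The submitters' processing notes name GRCm38, DESeq2 1.19.11, Salmon 0.11.2 and R 3.6.0, with no settings. The deposited table holds signal: gene values scaled by the authors, which are not counts. Only 30.6% to 72.6% of a library's low values (median 64.3%) were whole multiples of the value taken as 1 read, within 0.1 of a step, so reads could not be recovered, and the branch of the analysis planned for counts (edgeR) was not run. Depth was estimated as the sum of a library's values divided by the value taken as 1 read. Of the identifiers, 51285 matched GENCODE M21 gene models, and the rest held 0.00333% of the summed values. No pair of libraries was identical. No batch is given in the labels.

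Values were taken as log2(value + 1); this scale understates the change of low genes. Genes with a mean of at least 10 were fitted with limma 3.58.1 in R 4.3.3 (12 group means of genotype, drug and sex, limma-trend, robust, 47 residual degrees of freedom), checked on simulated data. Comparisons average the sexes equally, tests are two-sided, and p-values were adjusted by Benjamini-Hochberg over all 16919 genes. A member is described in full where it was called or, with under 3 called, had one of the 2 smallest p of a direction; Pdgfra, Gpr17, Myrf, Mbp and Mog are also given for each drug in each genotype and for each comparison of genotypes within a drug. Other lineage genes are named where called. A gene that the rule for likeness to Mbp also picks is not reported here. Fibroblast markers, the fits by sex and stage levels without libraries and the contrasts averaged over drugs or genotypes were added after seeing the data. The members and lists were chosen with earlier results of these data known. Relations with Mbp were tested with 100000 permutations. Alternatives were another pseudocount, no filter, upper-quartile scaling, the compared groups only, a replicate block, removal of length and GC trends, a striatal covariate and leaving out libraries. Tables and plots were made with pandas 2.3.3, NumPy 2.4.6, SciPy 1.17.1 and matplotlib 3.10.9 in Python 3.11.15.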

Additional observations from a re-analysis of the deposited data

Results flagged for a closer look

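In 26 of the 120 groups of values examined (20 members in the 6 groups of genotype and drug), the highest or lowest library lay far from the others by Dixon's test, where chance gives about 1 in 20. HT fluoxetine female 2 lay apart by this test as the highest of its group for 15 members: Enpp6 at 1469, Ermn at 2965, Gal3st1 at 598.0, Gjc3 at 2523, Gpr17 at 5650, Mal at 19356, Mbp at 196582, Mog at 4451, Myrf at 3320, Nkx6-2 at 368.4, Olig1 at 4963, Olig2 at 1403, Opalin at 1203, Sirt2 at 9588 and Trf at 8485. Pdgfra and Cspg4 were not among them, although HT fluoxetine female 2 also held the highest Cspg4 value. This library is also the one with 72657 of Ttr, and the fits without it are given in the results.

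At the low end, HT vehicle female 1 lay apart for Gpr17 at 2411, Olig2 at 390.3 and Sirt2 at 3329. HT lithium male 2 did so for Ermn at 587.0 and Trf at 1676, and HT lithium female 1 for Ninj2 at 4.30. Among WT libraries, fluoxetine male 1 was low for Olig2 at 444.8 and Sirt2 at 3603, fluoxetine male 2 for Gjb1 at 112.8, and lithium female 2 for Gjb1 at 53.9 and Trf at 1299.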

How the results depend on the processing

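Pdgfra and Cspg4 were called with fluoxetine in HT mice under all 9 alternatives and each time 1 library was left out. The number of members called there was 2 with the compared groups only and 2 without the 4 libraries with markers of other regions, and 2 to 7 when 1 library was left out (2 without HT fluoxetine female 2 or HT vehicle female 1, 7 without HT fluoxetine female 3 or female 5). In WT mice given fluoxetine it was 1 with the replicate block, and 0 to 2 when 1 library was left out (2 without WT fluoxetine male 1). For lithium in HT mice it was 1 without the 4 libraries and 0 to 1 when 1 library was left out, for females against males 0 to 2, and for HT against WT with fluoxetine 0 to 1. For HT against WT averaged over drugs it was 1 with the block, with the block and length and GC trends removed, with the striatal covariate and without the 4 libraries, and 0 to 5 when 1 library was left out (5 without WT fluoxetine male 4). For fluoxetine averaged over genotypes it was 2 without the 4 libraries. For averaged lithium it was 0 with no filter or with the trends removed, 1 with the trends removed and the block, and 0 to 3 when 1 library was left out.

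Signs turned for estimates near 0. Gal3st1 between HT and WT vehicle libraries was 0.0040 without the 4 libraries, and -0.054 to 0.021 when 1 library was left out. Ninj2 between HT and WT lithium libraries was 0.0095 with a pseudocount of 5, 0.040 with the trends removed, with and without the block, 0.0046 without the 4 libraries, and -0.097 to 0.18 when 1 library was left out. Cspg4 between females and males was -0.0011 with the trends removed and -0.0056 with the block as well. Gjb1 between HT and WT vehicle libraries was -0.15 to 0.0029 when 1 library was left out, and the difference of fluoxetine's change between genotypes for Ninj2 was -0.18 to 0.015. The cause was not tested.

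Replicate numbers did not pair the libraries: the median correlation of deviations was -0.003 for the 145 pairs with the same number and -0.004 for the 580 with different numbers, and 12 of 59 libraries correlated best with their own number. With the block 6 members were called with fluoxetine in HT mice. Counts over all genes moved by more than 1.5 times in these comparisons: HT against WT with vehicle (4 with no filter and 2 without the 4 libraries, against 1), with fluoxetine (5 with the compared groups, 31 with the block, 4 with block and trends removed, 33 without the 4 libraries, against 2), with lithium (31 with no filter, 449 with the compared groups, 31 with trends removed, 24 with the block as well, 40 with the covariate, against 93) and averaged (2 with no filter, 73 with the block, 25 with trends removed, 133 without the 4 libraries, against 42), fluoxetine in WT mice (1160 with trends removed, 1196 with the block as well, against 2500), lithium in HT mice (448 with no filter, against 847) and in WT mice (212, against 376), and females against males (172 with no filter, 198 with the covariate, 218 without the 4 libraries, against 355). Upper-quartile scaling moved the median of all genes by at most 0.01. Depth sets a limit for Ninj2, at a mean of 22.0.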
